A study of Mus musculus with 4 samples.

Results

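Class I odorant receptor (*OR*) genes were taken as the genes named Olfr and a number, from *Olfr543* up to *Olfr692*, which gave 115 genes of the 1107 *OR* genes and of the 24421 genes with deposited values. All 115 were found in the GENCODE M21 annotation (mouse assembly GRCm38). They lie on chromosome 7 from position 102476579 to position 105369355, a span of 2.89 Mb, with 61 genes on the plus strand and 54 on the minus strand. The annotation lists 114 of them as protein-coding and *Olfr663* as a polymorphic pseudogene. The same span holds 9 *OR* genes with lower numbers, such as *Olfr78*, which the rule leaves out, and the 983 *OR* genes outside the span are called other *OR* genes here. RNA-seq was performed on fluorescence-activated cell sorted (FACS) cells of the main olfactory epithelium (MOE) of mice of 2 transgenic lines, with 1 library in each of 4 groups. The TAAR enhancer 1-GFP line gave GFP-positive and GFP-negative cells, and the TAAR enhancer 2-tdTomato line gave cells with and without tdTomato. In each line an enhancer of the *Taar* gene cluster was placed before the minimal promoter of *Hsp68* in a PiggyBac transgene that drives the reporter. The reporter-negative cells carry the same transgene, and each line was kept from a single founder. The labels describe the mice as adult and of the C57BL/6 strain. The study's reporting summary gives an early postnatal age, as a single day for the GFP line and a range of days for the tdTomato line. For its mouse lines in general, it gives a mixed C57BL/6J and 129 background. With 1 library per group there is no replicate check, no p-values were calculated, and "lower" and "higher" below describe these libraries.

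In mammals, ORs fall into class I, a family related to the receptors of fish, and class II, which holds most genes. Each olfactory sensory neuron (OSN) expresses a single *OR* allele, so the class I level of a tissue depends on how many neurons chose a class I gene and on how much receptor RNA each one makes. In mouse, class I genes form a single cluster, are expressed mainly by neurons of the dorsal MOE, and are controlled over long distances by the J element, an enhancer inside the cluster. The trace amine-associated receptors (TAARs), from whose enhancers the reporters were made, are expressed by other neurons, most of them dorsal as well. The comparison of reporter-positive with reporter-negative cells within a line asks which receptor genes are expressed by cells in which the *Taar* enhancer is active, and fewer cells of a type cannot be told apart from less RNA per cell in it.

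Some class I genes are near copies of each other, which limits how reads can be assigned to them. Of the 115 genes, 37 shared no 50-base window of their GENCODE transcripts with a transcript of another gene, 85 shared under 10% of their windows, and 30 shared 10% or more, with a median of 1.53%. *Olfr596* and *Olfr603*, on opposite strands, are shown because they are nearly identical over their 939 coding bases, of which 5 differ (99.5% identical). The coding stretch from base 623 to base 682 holds 2 of these differences, marked in capitals, and lies at chr7:103310345-103310404 on the plus strand for *Olfr596* and at chr7:103383319-103383378 on the minus strand for *Olfr603* (GRCm38, from GENCODE M21).
Olfr596: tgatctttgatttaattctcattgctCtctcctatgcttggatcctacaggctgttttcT
Olfr603: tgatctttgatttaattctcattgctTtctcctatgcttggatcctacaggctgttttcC
Their longest identical run is 295 bases, yet their values differed. *Olfr596* had 20.7 TPM in GFP-negative, 6.05 in GFP-positive, 50.5 in tdTomato-negative and 10.9 in tdTomato-positive cells, while *Olfr603* was listed at 0 in 3 libraries and at 0.063 TPM in tdTomato-positive cells. How reads shared by the pair were assigned was not tested. *Olfr643* and *Olfr644* are shown because the study's in situ probe for *Olfr644* can also detect *Olfr643*. Their first 50 coding bases, at chr7:104059551-104059600 and chr7:104068980-104069029 on the minus strand (GRCm38, from RefSeq), are identical, so that no base is in capitals.
Olfr643: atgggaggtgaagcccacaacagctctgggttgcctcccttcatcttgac
Olfr644: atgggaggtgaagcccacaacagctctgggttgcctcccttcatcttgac
The GENCODE model of *Olfr643* holds another transcript without the receptor's reading frame, so the window count does not cover this pair.

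Class I transcripts made up a larger share of all *OR* transcripts in reporter-positive than in reporter-negative cells of both lines. They held 16.5% of the summed *OR* TPM in GFP-negative cells, 24.0% in GFP-positive cells, 14.4% in tdTomato-negative and 46.4% in tdTomato-positive cells. This share does not move with a scaling of the library. Counting the 9 genes with lower numbers in the span as well gave 17.3%, 25.9%, 15.5% and 50.8%. The 115 genes summed to 3006 TPM in GFP-negative against 373.6 TPM in GFP-positive cells, an 8.05-fold lower level (log2 ratio -3.01). They summed to 2903 TPM in tdTomato-negative against 2411 TPM in tdTomato-positive cells, with a log2 ratio of -0.27, which was 0.031 without the genes that share 10% or more of their windows. The sum over the other *OR* genes was 13.1-fold lower in GFP-positive cells (log2 ratio -3.71) and 6.67-fold lower in tdTomato-positive cells (log2 ratio -2.74). The reporter-positive libraries of the lines held 373.6 and 2411 TPM of class I genes, and 1152 and 2560 TPM of other *OR* genes.

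**Figure D1:**
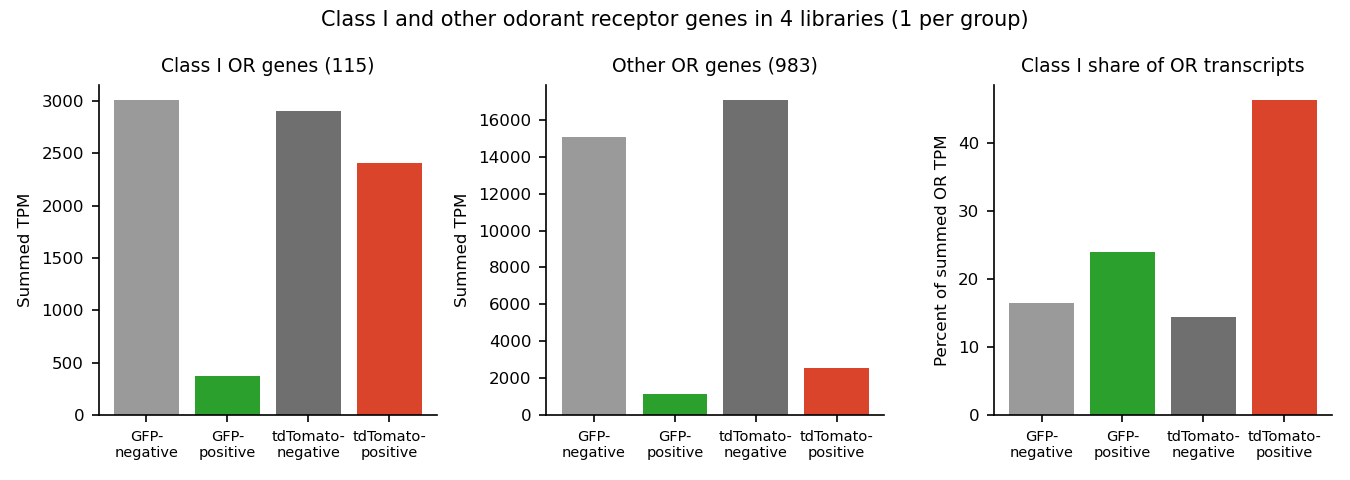
Bars give the summed TPM of the 115 class I *OR* genes (left), the summed TPM of the 983 other *OR* genes (middle) and the class I percent of the summed TPM of all *OR* genes (right) in each of the 4 libraries, with 1 library per group and no error bars. The class I sum was lowest in GFP-positive cells (373.6 TPM), and the class I share was highest in tdTomato-positive cells (46.4%).

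Genes of OSNs and of other cell types also differed between the sorted populations. The summed TPM of 12 mature OSN markers was 28264 in GFP-negative against 3131 in GFP-positive cells (log2 ratio -3.17), and 29123 in tdTomato-negative against 13119 in tdTomato-positive cells (log2 ratio -1.15). When the libraries were scaled to these markers, the class I ratio changed direction in both lines, to a log2 ratio of 0.050 in the GFP line and of 0.78 in the tdTomato line. Class I TPM was thus 31.4% of the TPM of *Omp*, the gene of the olfactory marker protein of mature OSNs, in GFP-negative cells, 33.7% in GFP-positive, 28.7% in tdTomato-negative and 54.5% in tdTomato-positive cells. Markers of Bowman glands were higher in reporter-positive cells for 4 of 4 genes in each line, with sums, given for reporter-negative and then reporter-positive cells, of 1713 and 68817 TPM in the GFP line and 216.0 and 1951 TPM in the tdTomato line. Markers of multiciliated cells were higher for 5 of 5 genes in each line (350.6 and 1355 TPM, then 350.04 and 4609 TPM), and *Ccdc153* was listed at 0 in GFP-negative cells. Sustentacular markers were higher for 6 of 6 genes in GFP-positive cells (994.3 and 9500 TPM) and for 4 of 6 in tdTomato-positive cells (1711 and 9359 TPM). Horizontal basal cell markers were higher for 5 of 5 genes in GFP-positive cells (63.0 and 629.2 TPM) and lower for 5 of 5 in tdTomato-positive cells (151.6 and 29.1 TPM). Immune markers were lower for 3 of 4 genes in each line (3727 and 2187 TPM, then 2232 and 1827 TPM). *Lyz2* was higher (1581 and 2043 TPM, then 706.7 and 1707 TPM) and held most of each reporter-positive sum. The log2 fold changes of *Ptprc*, *Cd74* and *Tyrobp* were -5.44, -3.48 and -6.20 in the GFP line. In the tdTomato line they were -6.33, -3.22 and -4.22. Of all genes with at least 1 TPM in either library, 12216 of 16173 (75.5%) were lower in GFP-positive cells and 3957 higher. For tdTomato, 9462 of 15777 were lower and 6315 higher. The part of these other cell types in the class I values was not tested.

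In the GFP line nearly every class I gene was lower in GFP-positive cells in TPM as deposited. Of the 115 genes, 100 had at least 1 TPM in either library and 15 did not. Fold changes were taken between values of log2(TPM + 1), on which changes of low genes come out too small. Of the 100 genes, 97 had a negative log2 fold change, as did 93.5% of other *OR* genes and 75.5% of all genes. On this scale 71 of the 100 (71%) were at least 4-fold lower, compared with 16.7% of all genes, and 0 were at least 4-fold higher, compared with 7.36% of all genes. The median log2 fold change was -2.67 for class I genes, -3.04 for the other *OR* genes, of which 577 of 773 (74.6%) were 4-fold lower and 15 (1.94%) 4-fold higher, and -0.88 for all genes. Scaled to the mature OSN markers, which moves the median of all genes to 1.96, 15 of 100 class I genes (15%) were 4-fold lower, compared with 39.4% of other *OR* genes and 3.89% of all genes. On the same scale 9 (9%) were 4-fold higher, compared with 8.79% of other *OR* genes and 48.6% of all genes. In the tdTomato line class I genes went both ways. Of 88 genes with at least 1 TPM in either library, 39 (44.3%) were at least 4-fold lower, compared with 11.4% of all genes, and 22 (25%) at least 4-fold higher, compared with 8.2% of all genes. The median was -1.28, with an interquartile range of -3.83 to 1.90, compared with a median of -0.23 for all genes. Among the other *OR* genes 455 of 620 (73.4%) were 4-fold lower and 41 (6.61%) 4-fold higher, with a median of -3.52 and an interquartile range of -4.79 to -1.86. Scaled to the mature OSN markers, 31 class I genes (35.2%) were 4-fold lower in this line, compared with 60% of other *OR* genes and 7.01% of all genes, and 26 of 88 were 4-fold higher, compared with 7.7% and 14.1%. In TPM as deposited, 27 of the 39 lower genes were listed at 0 in tdTomato-positive cells, and 16 of the 22 higher genes were listed at 0 in tdTomato-negative cells.

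The 2 lines were then compared gene by gene. Among 85 class I genes that could be compared in both, 29 (34.1%) were 4-fold lower in both lines, compared with 330 of 563 other *OR* genes (58.6%) and 6.69% of all genes. On log2(TPM + 1) none was 4-fold higher in both, compared with 1 of the other *OR* genes and 567 of all 15033 genes compared. This rests on the pseudocount for *Olfr600*, which had 0 reads in both reporter-negative libraries, 43 in GFP-positive and 100 in tdTomato-positive cells. In TPM as deposited 11 (12.9%) were 4-fold lower in GFP-positive and 4-fold higher in tdTomato-positive cells. This pattern was found for 25 of the 563 other *OR* genes (4.44%) and for 0.426% of all genes. The 11 genes are *Olfr557*, *Olfr575*, *Olfr578*, *Olfr591*, *Olfr597*, *Olfr642*, *Olfr669*, *Olfr678*, *Olfr690*, *Olfr691* and *Olfr692*, and 6 of them were listed at 0 in tdTomato-negative cells. Scaled to the mature OSN markers, all 11 were still 4-fold higher in the tdTomato line, which adds no support, since they were chosen for being higher there. In the GFP line 1 of them, *Olfr669* (-2.03), was still 4-fold lower with this scaling. *Olfr578*, *Olfr690* and *Olfr691* had positive values in that line (0.081, 0.44 and 0.12). The pattern was then found for 2 of 84 class I genes (2.38%), 2.17% of other *OR* genes and 0.153% of all genes. The other 11 of the 22 higher genes comprise *Olfr543* and *Olfr593*, listed at 0 in both GFP libraries, and 9 under 4-fold different in the GFP line on log2(TPM + 1). For low genes this rests on the pseudocount, as for *Olfr613* (1.20 TPM without and 0.091 TPM with GFP) and *Olfr600* (0 and 1.77 TPM).

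**Figure D2:**
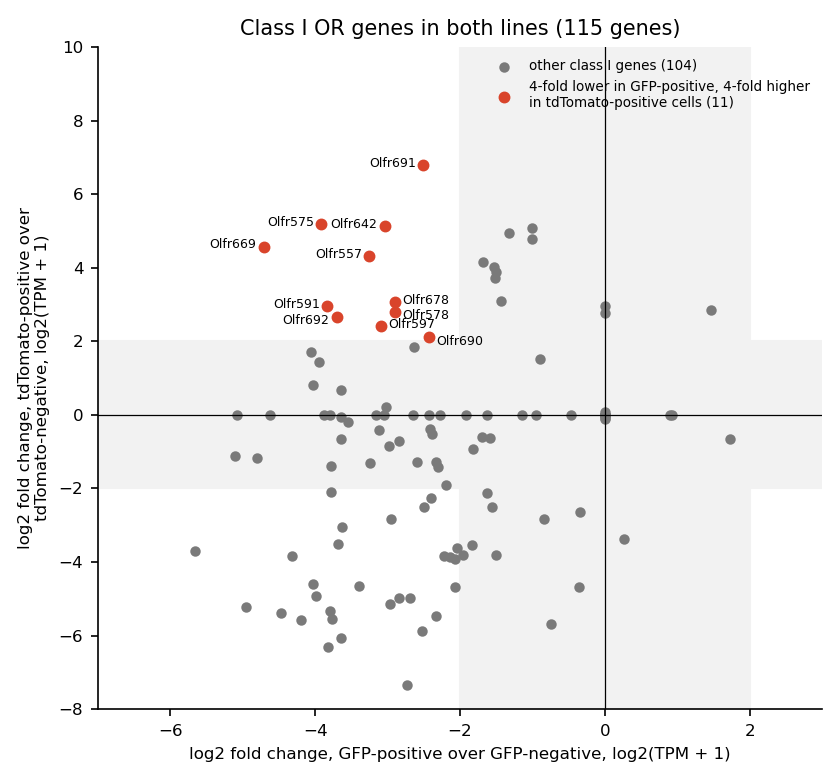
Each point is 1 of the 115 class I *OR* genes, with its log2 fold change of TPM + 1 in the GFP line on the horizontal axis and in the tdTomato line on the vertical axis, and grey bands mark changes under 4-fold. In TPM as deposited the 11 genes in red lie at the upper left, from -4.71 to -2.42 in the GFP line and from 2.11 to 6.79 in the tdTomato line. On this scale of TPM + 1, on which changes of low genes come out too small, no gene was 4-fold higher in GFP-positive cells. After scaling to mature OSN markers 9% of class I genes were, compared with 48.6% of all genes, and 1 of the 11 was still 4-fold lower there.

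Only a few class I genes held most of the class I transcripts in tdTomato-positive cells. The 10 highest class I genes held 29.2% of the class I TPM in GFP-negative cells, 37.8% in GFP-positive, 39.5% in tdTomato-negative and 68.2% in tdTomato-positive cells. The corresponding share of the 10 highest other *OR* genes in their own sum was 7.0%, 15.0%, 10.1% and 22.7%, over a larger number of genes. In the same order of libraries, 22, 16, 15 and 6 class I genes were needed to reach 50% of the class I TPM. *Olfr649* was the highest class I gene in GFP-negative cells (123.1 TPM, 4.10% of class I TPM) and also in tdTomato-positive cells (319.4 TPM, 13.2%), with 18.9 TPM in GFP-positive and 89.0 TPM in tdTomato-negative cells. *Olfr552* was the highest in GFP-positive cells with 25.2 TPM (6.73%). *Olfr598* was the highest in tdTomato-negative cells with 177.2 TPM (6.10%).

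**Figure D3:**
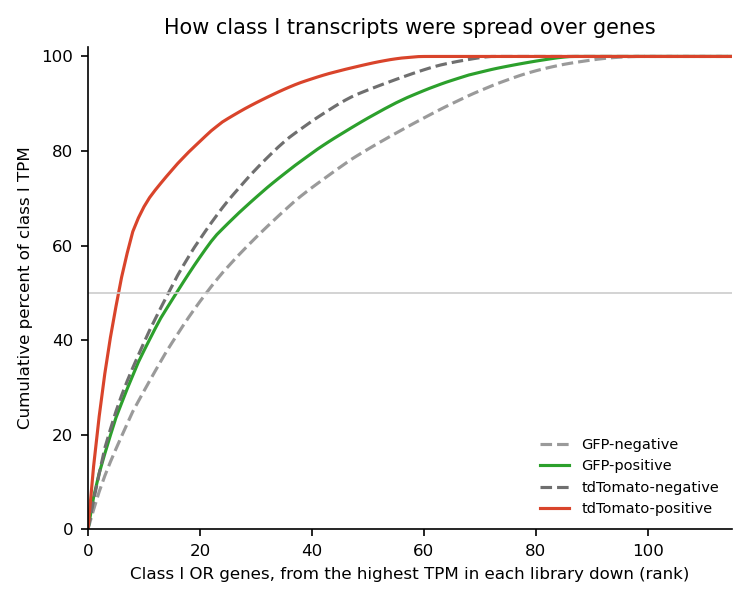
Lines give the cumulative percent of class I TPM against the rank of the class I genes, sorted from the highest TPM down within each library, and the grey line marks 50%. The tdTomato-positive line crosses 50% at 6 genes, and the other 3 libraries at 15 to 22 genes.

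None of the 5 highest class I genes of tdTomato-positive cells was among the 5 highest of tdTomato-negative cells. *Olfr575* had 255.4 TPM in tdTomato-positive against 6.08 TPM in tdTomato-negative cells, a log2 fold change of 5.18, and 0.49 TPM in GFP-positive against 21.4 TPM in GFP-negative cells (-3.91). *Olfr557* had 159.5 against 7.06 TPM in the tdTomato line (4.32) and 3.24 against 39.5 TPM in the GFP line (-3.25), with reporter-positive cells given first. In the same order *Olfr578* had 184.6 against 25.5 TPM (2.81) and 14.6 against 114.7 TPM (-2.89). In TPM as deposited, each of these 3 genes was higher with than without tdTomato and lower with than without GFP. *Olfr615* had 217.2 against 66.2 TPM in the tdTomato line (1.70) and 4.05 against 83.0 TPM in the GFP line (-4.06). *Olfr649* had log2 fold changes of 1.83 in the tdTomato line and -2.64 in the GFP line. *Olfr691* had a log2 fold change of 6.79, being listed at 0 without and at 109.8 TPM with tdTomato, although GFP-negative cells had 18.6 TPM and GFP-positive cells 2.45 TPM. *Olfr613*, *Olfr642* and *Olfr561* were also listed at 0 in tdTomato-negative cells, and had 32.9, 34.3 and 29.8 TPM in tdTomato-positive cells.

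Other class I genes were listed at 0 in tdTomato-positive cells. *Olfr655* had 162.4 TPM in their control and none in them (-7.35), and in the GFP line 63.9 TPM in reporter-negative against 8.77 TPM in reporter-positive cells (-2.73). *Olfr560*, *Olfr633* and *Olfr617* had 78.2, 65.8 and 57.3 TPM in the control and were likewise at 0 with tdTomato. *Olfr552*, the highest class I gene of GFP-positive cells, was at 0 with and at 50.5 TPM without tdTomato (-5.69), while its 42.7 TPM without and 25.2 TPM with GFP gave a log2 fold change of -0.74. In the GFP line the most negative log2 fold changes were those of *Olfr618* (49.3 TPM without and 0 with GFP, -5.65), *Olfr594* (33.4 and 0 TPM, -5.10), *Olfr644* (32.7 and 0 TPM, -5.08), *Olfr592* (52.9 and 0.75 TPM, -4.95) and *Olfr670* (27.0 and 0 TPM, -4.81). *Olfr566* was the only class I gene at 10 TPM or more in a GFP library with a positive log2 fold change (9.34 TPM without and 11.5 TPM with GFP, 0.27).

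The class I genes for which the study made in situ probes varied as widely. The mixed class I probe was made from 8 genes, which held 9.72% of the class I TPM in GFP-negative cells, 17.5% in GFP-positive, 7.46% in tdTomato-negative and 8.66% in tdTomato-positive cells. *Olfr690* had 38.1, 6.30, 33.6 and 148.5 TPM in GFP-negative, GFP-positive, tdTomato-negative and tdTomato-positive cells. *Olfr672* had 80.3, 15.4, 75.2 and 27.4 TPM in the same order, and *Olfr653* had 79.1, 14.02, 18 and 13.5 TPM. *Olfr639* had 18.5, 2.70, 39.3 and 7.33 TPM. *Olfr692* had 33.4 and 1.65 TPM in the GFP line, and 0 and 5.31 TPM in the tdTomato line. *Olfr543* was listed at 0 in 3 libraries and at 6.75 TPM in tdTomato-positive cells, and *Olfr547* was listed at 0 in 3 libraries and at 0.073 TPM in tdTomato-negative cells. *Olfr643* had 14.9, 1.65, 81.6 and 33.0 TPM, while *Olfr644*, whose coding start is identical, was at 0 in all but GFP-negative cells, and how many reads the pair shares was not tested. Of the 4 class I genes known from ligands or other tissues, *Olfr544*, a receptor for azelaic acid, had 25, 6.98, 21.9 and 14.1 TPM, *Olfr545* had 7.18, 1.88, 21.9 and 0.62 TPM, and *Olfr558*, a receptor for short-chain fatty acids, had 22.3, 0.69, 11.6 and 3.8 TPM. The fourth, *Olfr691*, had 18.6, 2.45, 0 and 109.8 TPM. In TPM as deposited it was higher with than without tdTomato, unlike the other 3. Scaled to the mature OSN markers, *Olfr544* was also higher there (log2 fold change 0.38).

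The number of reads behind each value could be recovered for most class I genes, because TPM multiplied by the RefSeq length of the gene came out as whole multiples of the worth of 1 read, within 0.01 of a read. This held for every class I gene under 1000 bases with a value above 0, which were 74 genes in GFP-negative, 67 in GFP-positive, 54 in tdTomato-negative and 47 in tdTomato-positive cells. Over all lengths 93 class I genes and 689 other *OR* genes could be used, 14 class I genes did not give whole reads, and 8 were at 0 in all 4 libraries. The 93 genes held 74008, 8118, 35353 and 39018 reads in GFP-negative, GFP-positive, tdTomato-negative and tdTomato-positive cells. They made up 18.04% of the reads of all 782 of these genes in GFP-negative cells (95% Wilson interval 17.9 to 18.2), 25.9% (25.4 to 26.4) in GFP-positive, 15.6% (15.5 to 15.8) in tdTomato-negative and 53.3% (52.9 to 53.6) in tdTomato-positive cells. These intervals take every read as independent, which reads without molecular identifiers are not. They can thus be too narrow even for counting error, and they do not cover the spread between libraries or animals.

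Class I genes tended to have either many reads or none. In GFP-negative cells 82 of the 93 genes had 100 reads or more, 3 had 10 to 99, 0 had 1 to 9, and 8 had none. In tdTomato-negative cells the corresponding numbers were 54, 7, 2 and 30, and in tdTomato-positive cells 44, 8, 2 and 39. GFP-positive cells differed in that 22 genes had 100 reads or more, 55 had 10 to 99, 0 had 1 to 9, and 16 had none. Genes with no reads therefore made up 8.60%, 17.2%, 32.3% and 41.9% of these 93 genes in GFP-negative, GFP-positive, tdTomato-negative and tdTomato-positive cells, and 12.6%, 50.8%, 30.6% and 76.6% of the 689 other *OR* genes. Since genes at 0 in every library are left out of these shares, the shares listed at 0 were higher over all genes, at 14.8%, 24.3%, 35.7% and 46.1% of the 115 class I genes and 24.6%, 57.3%, 39.6% and 79.5% of the 983 other *OR* genes. Genes with no reads in one library often had 100 or more in another. Of the 82 class I genes with 100 reads or more in GFP-negative cells, 22 (26.8%) had none in tdTomato-negative cells, as did 143 of 534 other *OR* genes (26.8%). *Olfr669* was the highest of the 22 (2400 reads and none). *Olfr669* had 60 reads in GFP-positive and 368 in tdTomato-positive cells, so its log2 fold change of 4.57 in the tdTomato line rests on a control listed at 0. Of the 54 genes with 100 reads or more in tdTomato-negative cells, 22 (40.7%) had none in tdTomato-positive cells, compared with 264 of 370 other *OR* genes (71.4%).

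**Figure D4:**
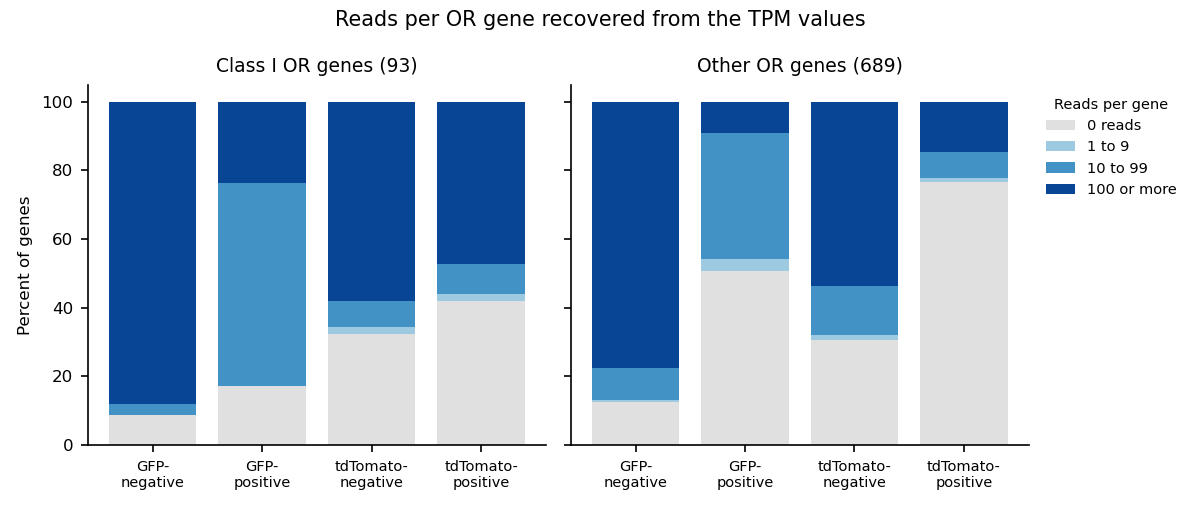
Stacked bars give the percent of genes with 0, 1 to 9, 10 to 99, and 100 or more recovered reads in each library, for 93 class I *OR* genes (left) and 689 other *OR* genes (right). Genes with 1 to 9 reads were rare, and genes with no reads made up 41.9% of the 93 and 76.6% of the 689 genes in tdTomato-positive cells, which leaves out genes at 0 in every library.

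For a gene with no reads, a limit of 3 reads gave a bound on the fold in TPM as deposited. The bound covers counting error only and takes reads as independent, so it can be too large. The lowest class I value above 0 was 58 reads in GFP-negative, 11 in GFP-positive and 1 in each of the tdTomato-negative and tdTomato-positive libraries. *Olfr655* had 2199 reads in tdTomato-negative cells and was at least 849-fold lower in tdTomato-positive cells, and *Olfr560* (1079 reads), which shares 44.1% of its windows, most of them with *Olfr78*, was at least 417-fold lower. *Olfr552*, with 704 reads in tdTomato-negative and 617 in GFP-positive cells, was at least 272-fold lower in tdTomato-positive cells. *Olfr618*, with 1334 reads in GFP-negative cells, was at least 405-fold lower in GFP-positive cells, and *Olfr644* (874 reads) at least 265-fold lower. Scaled to the mature OSN markers, the bounds were 48.6-fold for *Olfr618* and 31.8-fold for *Olfr644* in the GFP line, and 412-fold for *Olfr655*, 202-fold for *Olfr560* and 132-fold for *Olfr552* in the tdTomato line. In the other direction, *Olfr613* (2857 reads) was at least 822-fold higher and *Olfr691* (1801 reads) at least 518-fold higher in tdTomato-positive cells (1694-fold and 1068-fold with that scaling). In the GFP line, *Olfr576* (56 reads), *Olfr600* (43), *Olfr608* (22) and *Olfr555* (21) had no reads in GFP-negative cells. They were at least 20.5, 15.8, 8.06 and 7.69 times higher in GFP-positive cells (171, 131, 67.1 and 64.1 times with that scaling). The reads of *Olfr575* were 579, 12, 85 and 4136, and those of *Olfr649* were 3265, 457, 1221 and 5076, in GFP-negative, GFP-positive, tdTomato-negative and tdTomato-positive cells.

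The reporter-negative libraries of the 2 lines also differed in which class I genes they held. Above 0 TPM were 98 class I genes in GFP-negative, 87 in GFP-positive, 74 in tdTomato-negative and 62 in tdTomato-positive cells. In both reporter-negative libraries 71 were above 0, 27 were above 0 only in GFP-negative and 3 only in tdTomato-negative cells. For the 983 other *OR* genes these numbers were 521, 220 and 73. Of the 27, 19 had at least 10 TPM in GFP-negative cells, as did 100 of the 220. Across the 115 genes, which share the libraries and are not independent replicates, Spearman's rho was 0.53 (Pearson's r 0.42) between the reporter-negative libraries. It was 0.61 (0.60) between GFP-negative and GFP-positive cells, and 0.23 (0.25) between tdTomato-negative and tdTomato-positive cells. For the other *OR* genes the corresponding values were 0.51 (0.56), 0.35 (0.36) and 0.24 (0.24). In all 4 libraries 40 class I genes were above 0, and *Olfr564*, *Olfr568*, *Olfr574*, *Olfr583*, *Olfr585*, *Olfr589*, *Olfr663* and *Olfr688* were at 0 in each.

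Class I genes were next followed along the chromosome in 4 blocks of 29, 29, 29 and 28 genes. The first block, from *Olfr543* to *Olfr578*, held 20.0% of the class I TPM in GFP-negative, 27.1% in GFP-positive, 20.5% in tdTomato-negative and 35.1% in tdTomato-positive cells. It was the only block with a higher sum in tdTomato-positive than in tdTomato-negative cells (846.0 and 594.6 TPM, log2 ratio 0.51), which rests on *Olfr575*, without which it held 590.6 and 588.5 TPM, while scaling to the mature OSN markers, which adds 1.04, would make all 4 higher. The log2 ratios of the other blocks in the tdTomato line were -0.47, -0.80 and -0.30, and those of all 4 blocks in the GFP line lay between -3.28 and -2.57. Within the blocks, neighbours differed. In the tdTomato line, the numbers of 4-fold higher genes were 7, 6, 3 and 6, and those of 4-fold lower genes 8, 9, 14 and 8. Over the line, 8.2% of all genes and 6.61% of other *OR* genes were higher, and 11.4% and 73.4% lower. The blocks also differed in genes at 0, with 9, 12, 8 and 12 in tdTomato-negative and 12, 12, 16 and 13 in tdTomato-positive cells. Differences between blocks were not tested. In the first block, *Olfr559* and *Olfr560* (46.9 and 78.2 TPM without tdTomato) were at 0 with tdTomato, close to *Olfr557* with 159.5 TPM. Of the genes in the span that the rule leaves out, *Olfr78* had 3.76, 0.42, 15.3 and 114.6 TPM and *Olfr66* had 0, 0.67, 0 and 61.6 TPM in GFP-negative, GFP-positive, tdTomato-negative and tdTomato-positive cells.

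**Figure D5:**
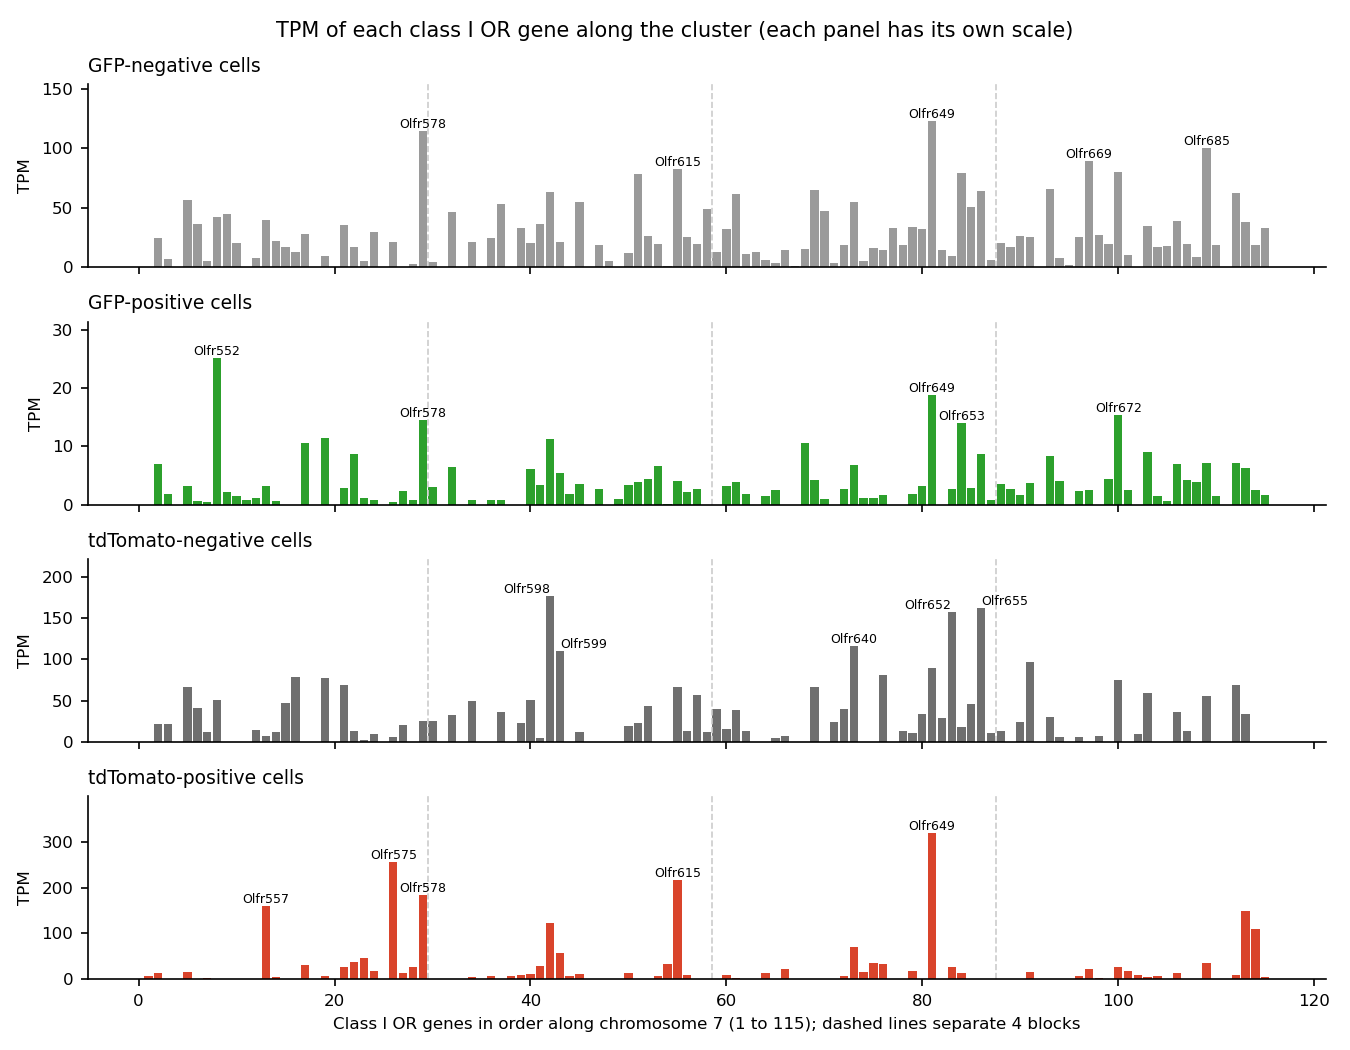
Bars give the TPM of each of the 115 class I *OR* genes in their order along chromosome 7, with 1 panel and 1 scale per library, dashed lines between the 4 blocks and the names of the 5 highest genes. In tdTomato-positive cells tall bars (*Olfr649*, 319.4 TPM) stand among genes at 0, while GFP-negative cells show a value above 0 for 98 of the 115 genes.

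Receptor subfamilies, taken from the MOR family number in the RefSeq synonyms of 112 class I genes, likewise held members with opposite values. Of 43 such families, 6 had at least 5 genes. The 10 genes of MOR31 had a summed 364.9 TPM in GFP-negative, 36.7 in GFP-positive, 361.4 in tdTomato-negative and 592.6 in tdTomato-positive cells, and were the only one of the 6 families with a higher sum in tdTomato-positive than in tdTomato-negative cells in TPM as deposited (log2 ratio 0.71). Without *Olfr649* the other 9 held 272.4 TPM without and 273.1 TPM with tdTomato. In tdTomato-positive cells 4 of its genes (*Olfr649*, *Olfr690*, *Olfr691* and *Olfr549*) were above 0, and the other 6, such as *Olfr617* and *Olfr648*, were listed at 0. MOR13, a run of 6 adjacent genes from *Olfr640* to *Olfr645*, had log2 ratios of -3.75 in the GFP line and -0.47 in the tdTomato line. The other 4 families, MOR14, MOR32, MOR34 and MOR40, had log2 ratios between -2.94 and -1.17 in the tdTomato line and between -3.45 and -1.19 in the GFP line.

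Most genes that act with ORs were lower in the reporter-positive cells of both lines in TPM as deposited. Of 11 genes of odorant signal transduction, 10 were at least 4-fold lower in GFP-positive cells, compared with 16.7% of all genes (median log2 fold change -2.91, summed TPM 10725 and 1443) and 0 in tdTomato-positive cells (median -0.85, 11542 and 6019), where all 11 were lower by less. In that line 11.4% of all genes were 4-fold lower and 9462 of 15777 genes had a negative log2 fold change. Of these 11 genes, 8 are also among the 12 mature OSN markers. *Adcy3*, the adenylyl cyclase of the cascade, had 872.5 TPM without and 88.3 TPM with GFP, and 1177 TPM without and 663.3 TPM with tdTomato. The 3 genes for export of receptors to the cell surface, *Rtp1*, *Rtp2* and *Reep1*, were 4-fold lower in GFP-positive cells, and none was in tdTomato-positive cells, where their median log2 fold change was -1.20. Of 12 regulators of receptor choice, 8 were 4-fold lower in GFP-positive cells (median -2.59) and 0 in tdTomato-positive cells (median -0.83), where *Cbx5* was the only one with a positive value (0.18). *Lhx2*, a homeodomain factor bound at *OR* enhancers, had 416.3 and 67.5 TPM in the GFP line and 370.9 and 202.8 TPM in the tdTomato line. *Bcl11b*, a factor that sets the choice between class I and class II genes, had 33.8 and 4.87 TPM in the GFP line and 32.5 and 13.0 TPM in the tdTomato line (log2 fold changes -2.57 and -1.26). With the libraries scaled to the mature OSN markers, the medians in the GFP and the tdTomato line were 0.066 and 0.19 for the transduction genes, 0.32 and -0.16 for the export genes and 0.37 and 0.21 for the regulators, with no gene of these lists 4-fold lower in either line. *Rtp1* and *Rtp2* are also among these markers, so the scaling itself in part sets the medians of the transduction and export genes. Of the regulators, 2 were 4-fold higher in the GFP line, as were 48.6% of all genes.

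Zone markers did not move together. *Nqo1*, a marker of dorsal OSNs, had 1308 TPM without and 225.8 TPM with GFP, and 949.4 TPM without and 300.8 TPM with tdTomato (log2 fold changes -2.53 and -1.66). *Acsm4*, another gene of the dorsal MOE, had 343.5 and 237.6 TPM, then 311.1 and 351.2 TPM (-0.53 and 0.17). *Ncam2*, a marker of ventral OSNs, had 47.4 and 6.08 TPM, then 48.5 and 26.0 TPM (-2.77 and -0.87). Scaling to the mature OSN markers adds 3.06 in the GFP line and 1.04 in the tdTomato line on the log2 scale, after which *Acsm4* and *Ncam2* are positive in both lines and *Nqo1* in the GFP line only.

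RefSeq start windows, of 250 bases before and 50 after the start of the gene model, were available for 99 class I genes and searched on both strands for 4 motifs of the factors that bind *OR* promoters and enhancers. The Ebf type motif CCCNNGGG was in 3.03% of class I windows, 3.04% of those of 823 other *OR* genes and 15.4% of 17224 windows of all genes. With a T before it and an A after it, the same motif was in 0 class I windows, 0.608% of other *OR* windows and 0.981% of all windows. The homeodomain type motif TAATTA was in 14.1% of class I windows, 19.3% of other *OR* windows and 4.51% of all windows, and TAATGA in 28.3%, 28.9% and 8.51%. In 76 of the 99 windows the gene model starts at the start codon, so they hold sequence next to the coding exon rather than the promoter, and the shares describe these windows only.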

How the data were processed

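Sorted MOE cells were measured by RNA-seq in 4 libraries. The authors deposited TPM values per gene symbol, scaled to 1000000 per library. The submitters' processing notes name mm10, Trimmomatic 0.36 and Salmon 1.4.0, while the methods name Hisat2, Cufflinks and featureCounts. These sources name different quantification steps, and which one gave the TPM values is not given in them. The labels and the methods name different library kits. Files of other experiments were not used here.

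The members and lists were chosen with earlier results of these data known. Fold changes are differences of log2(TPM + 1), with a pseudocount of 1, for genes with at least 1 TPM in either library of a line. A change of 4-fold was counted, and sums were compared as log2 ratios. The 37 named class I genes are those with probes, the 5 highest of each library, the 5 that changed most in each direction in each line with at least 10 TPM, and 4 known from ligands or other tissues. Other class I genes named, such as the remaining genes of the 11 that went opposite ways, were chosen after their values were seen. Reads were recovered as TPM multiplied by RefSeq length over the smallest such product that several genes shared. The calculation was run on data simulated from whole counts and the same lengths. Such data cannot show that the deposited values were made in this way. The recovered reads may be read pairs, and served as a description only, without a count test. GENCODE M21 gave positions. Python 3.11.15, NumPy 2.4.6, pandas 2.3.3, SciPy 1.17.1 and Matplotlib 3.10.9 were used.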

Additional observations from a re-analysis of the deposited data

Results flagged for a closer look

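In TPM as deposited, 11 class I genes had opposite changes in the 2 lines, where the log2 fold change of TPM + 1 was at or below -2 in the GFP line and at or above 2 in the tdTomato line. The values in the tdTomato line were 6.79 for *Olfr691*, 5.18 for *Olfr575*, 5.14 for *Olfr642*, 4.57 for *Olfr669*, 4.32 for *Olfr557*, 3.06 for *Olfr678*, 2.97 for *Olfr591*, 2.81 for *Olfr578*, 2.66 for *Olfr692*, 2.42 for *Olfr597* and 2.11 for *Olfr690*. In the GFP line, these genes had values from -4.71 (*Olfr669*) to -2.42 (*Olfr690*). Scaled to the mature OSN markers, 1 of the 11 was still 4-fold lower in the GFP line (*Olfr669*, -2.03), and *Olfr578* (0.081), *Olfr690* (0.44) and *Olfr691* (0.12) were above 0 there, and 2 of 84 class I genes (2.38%) had the pattern, compared with 2.17% of other *OR* genes. Each value compares 1 library with 1 other, and the difference between the lines was not tested.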

How the results depend on the processing

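No paired test was run, because each line holds a single reporter-positive and a single reporter-negative library. Scaled to the mature OSN markers, the log2 ratio of summed class I TPM was 0.050 in the GFP line and 0.78 in the tdTomato line, the median log2 fold changes were -0.0071 and -0.29 for class I and -1.49 and -2.58 for other *OR* genes, and 15 class I genes (15%) were 4-fold lower and 9 (9%) higher in GFP-positive cells, compared with 3.89% and 48.6% of all genes. Of 34 named genes below 0 in the GFP line, 17 then turned positive, and of 23 in the tdTomato line 6. The 17 include genes less than 4-fold lower as deposited, such as *Olfr552* (2.24), and 11 that were at least 4-fold lower: *Olfr578* (0.081), *Olfr598* (0.57), *Olfr617* (0.12), *Olfr639* (0.26), *Olfr640* (0.050), *Olfr649* (0.35), *Olfr653* (0.55), *Olfr655* (0.19), *Olfr672* (0.66), *Olfr690* (0.44) and *Olfr691* (0.12). The 6 include *Olfr653* (0.57). Of 71 fold changes of single named genes, only 8 stayed within 1.5 times when scaled to the mature OSN markers. With a pseudocount of 10, 49 moved by over 1.5 times, such as that of *Olfr691* in the tdTomato line (3.58). With a pseudocount of 0.1, 26 did so, and 26 with median ratio scaling, under which *Olfr552* in the GFP line was at 0.12. Without genes that shared 10% or more of their windows, the class I ratio in the tdTomato line was 0.031 on the log2 scale. Median ratio scaling, which adds 0.88 in the GFP line and 0.16 in the tdTomato line on the log2 scale, gave a class I log2 ratio of -2.12, a median of -1.90 and 1 higher gene in the GFP line, and rescaling without the highest genes also gave 1 higher gene. With a pseudocount of 10, 20 class I genes were 4-fold lower in the GFP line (median -1.34) and 19 lower and 7 higher in the tdTomato line, and the medians of other *OR* genes were -1.08 and -1.25. With a pseudocount of 0.1, 2 class I genes were higher in GFP-positive cells, and the medians of other *OR* genes were -4.87 and -6.55. A 2-fold limit gave 2 higher genes in GFP-positive cells. The 5 highest class I genes held 17.0% of the class I TPM in GFP-negative, 23.6% in GFP-positive and 24.9% in tdTomato-negative cells, and 23 class I genes had at least 5 TPM in GFP-positive cells. The class I share of *OR* TPM kept within 1.5 times its value in every alternative, including one with whole-read genes only that was chosen after seeing the data. With 1 library per group, the spread between animals is unknown.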

Other observations

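The 9 adjacent class I genes from *Olfr569* to *Olfr578* were picked out after their values were seen and have no test. They held 7.50% of the class I TPM in GFP-negative, 8.45% in GFP-positive, 5.03% in tdTomato-negative and 25.2% in tdTomato-positive cells. In tdTomato-positive cells *Olfr575* and *Olfr578* held 72.4% of the 607.6 TPM of the run, and the other 7 genes had at most 46.7 TPM each. *Olfr574* in this run was listed at 0 in all 4 libraries.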
